A study of Mus musculus with 12 samples.

Results

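Antibody heavy and light chain genes and 6 plasma cell genes were followed in whole mouse lung across 3 house dust mite (HDM) asthma models and a control group. A probe set, the group of array probes read out as 1 value, was taken as a member when its platform annotation named an immunoglobulin variable (V) or constant (C) region gene, or Jchain, Mzb1, Pou2af1, Xbp1, Prdm1 or Tnfrsf17. This gave 37 of the 34760 probe sets on the array, 10 for heavy chains, 19 for kappa light chains, 2 for lambda light chains and 6 for plasma cell genes. Of these, 21 carried a single gene symbol and 16 carried several, and the latter are described apart. All mice were Balb/c, and 1 array was made from the whole lung of each of 3 mice per group, so p-values measure the spread between mice. The mice with the "control" label (mice 1, 2 and 3) received only PBS into the nose. Eosinophilic mice (7, 8 and 9) were injected into the peritoneum 3 times with HDM extract, with Der f and Der p at 0.75 DU each, on 1.5 mg of Al(OH)3, and were then given a like dose into the nose on days 26 to 28. Mixed mice (15, 16 and 17) received 0.75 DU of each allergen and neutrophilic mice (23, 24 and 25) 7.5 DU of each, with no adjuvant, by weekly nasal application on 4 occasions. The labels give no age or sex, and the models differ from each other in route, adjuvant, schedule or dose.

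Plasma cells are the antibody-secreting end stage of B cells. Each antibody joins heavy chains, whose constant region sets the class (Ighm for IgM, Igha for IgA, Ighg3 for IgG3), to kappa or lambda light chains, and every B cell clone uses its own pick of V genes. Secreted IgA and IgM are joined into polymers by the J chain (Jchain), and the polymeric immunoglobulin receptor Pigr carries such polymers across airway epithelium to the mucosal surface.

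The antibody genes had higher levels in both weekly nasal models than in controls. All 37 members had a positive mean difference from control in mixed lung and all 37 in neutrophilic lung, with median log2 differences of 2.51 and 3.26, where all probe sets had medians of 0.04 and 0.11. In eosinophilic lung 16 of 37 were positive, and the median was -0.11 against 0.09 for all probe sets. After adjustment over the whole array, 10 members rose in neutrophilic lung (1.12% of all probe sets did so) and 2 rose in mixed lung (0.512% of all probe sets). None passed in eosinophilic lung, where 0.0978% of all probe sets rose, and none fell in any model, where 0.0633%, 0.351% and 2.83% of all probe sets fell in eosinophilic, mixed and neutrophilic lung.

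**Figure D1:**
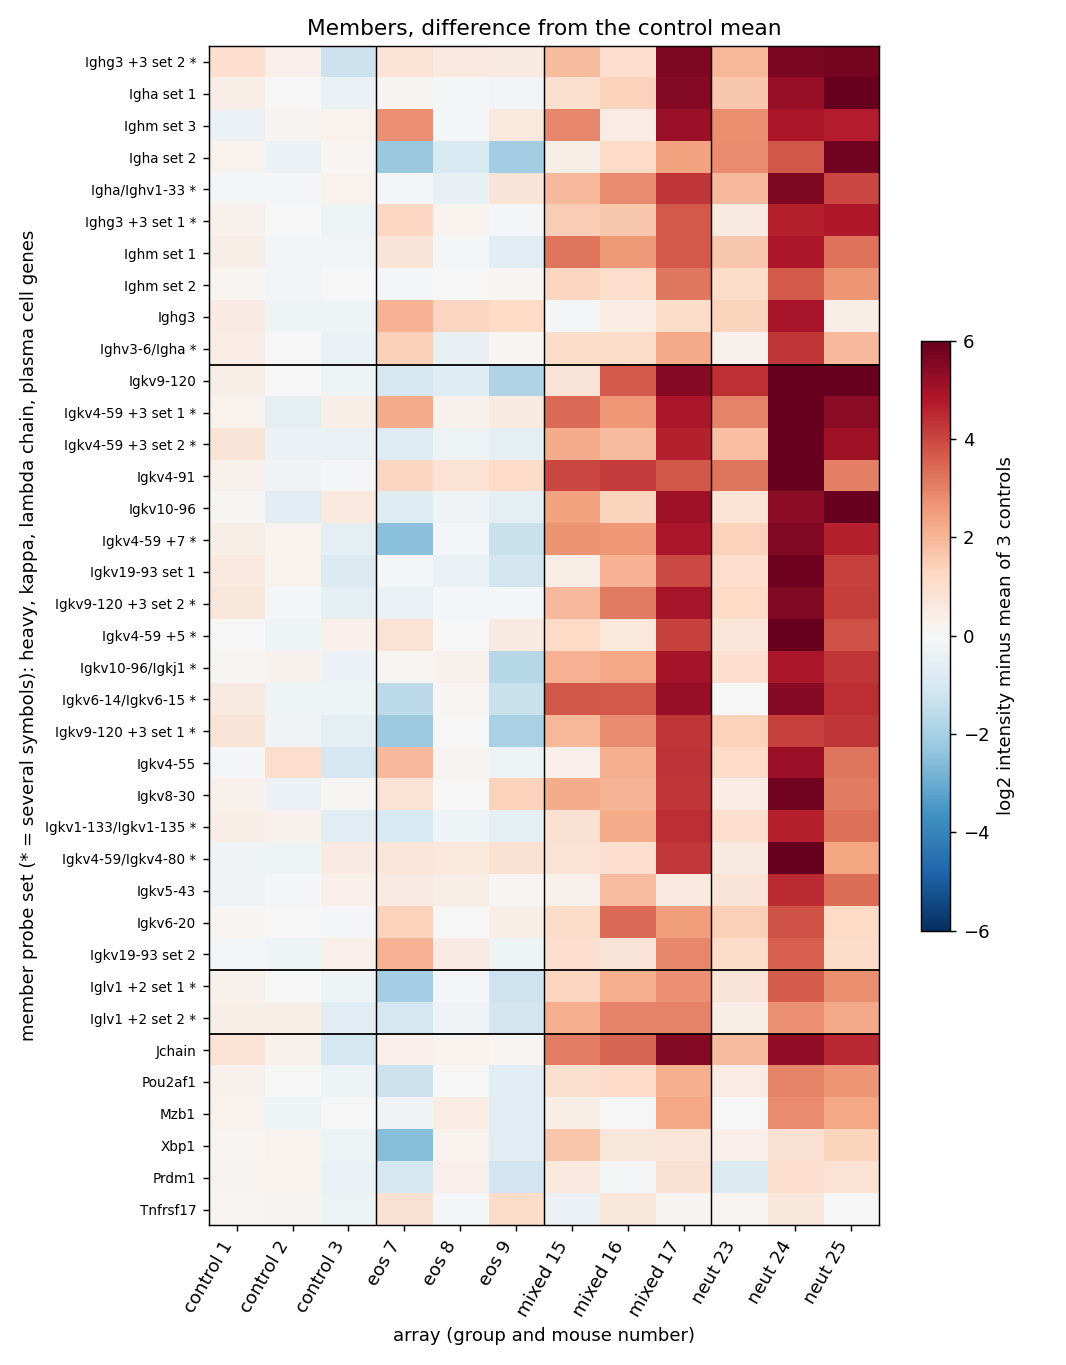
Each of the 37 members (rows, grouped by horizontal lines into heavy chain, kappa chain, lambda chain and plasma cell genes) on each of the 12 arrays (columns; eos, eosinophilic; neut, neutrophilic), coloured by log2 intensity minus the mean of the 3 control mice, with differences past 6 in the end colour; starred names carry several gene symbols, and "+3" means 3 further symbols. Mixed mouse 17 and neutrophilic mice 24 and 25 have the darkest columns, and neutrophilic mouse 23 is paler.

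The eosinophilic mouse 7 array was unlike all others. Over all probe sets its correlation with the median array of the remaining mice was 0.356, and the mean log2 intensity of 6 lung markers (Sftpc, Sftpb, Scgb1a1, Ager, Cldn18, Pecam1) was 6.72 on it, against 11.47 to 12.36 on the other 11 arrays. Tests therefore ran on 11 arrays, leaving 2 eosinophilic mice, and results with all 12 arrays are given beside them. Mouse 9 of the eosinophilic and mouse 23 of the neutrophilic group had arrays with a narrow spread of values (SD 1.52 and 1.51 log2, against 1.77 to 2.04 for the 9 others). Every test is limma's moderated test on deposited log2 intensities, with the spread pooled over the 4 groups and Benjamini-Hochberg adjustment over all 34760 probe sets, and a member is said to have risen when adjusted p was under 0.05. Values below are log2 intensities in the order of the mouse numbers above, differences are log2 ± SE, and the number of arrays limits their precision. Whole lung RNA cannot tell more antibody-secreting cells from more antibody mRNA per cell.

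What a probe set reads set a limit on naming. Of the 31 immunoglobulin members, 10 carried both V and C symbols, and the annotation did not say whether their probes lie in the V or the C part. Through shared accessions 19 members were tied to another in 7 clusters, the largest with 7 probe sets, so members are not independent counts. The annotation named Ighd, Ighe, Ighg1, Ighg2b and Ighg2c on 0 probe sets, so the IgD, IgE and those IgG classes are not analysed here. Several probe sets of 1 name are numbered from the highest mean level, and levels of different probe sets are not compared.

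Among plasma cell members, Jchain rose in the neutrophilic model and Pou2af1, the coactivator of octamer-binding factors in B cells, lay above control in all mice of both nasal models without passing the test. Their promoters are shown because a pair of sites tied to antibody secretion can be looked for in them: the octamer bound with the Pou2af1 protein, and the unfolded protein response site bound by Xbp1. Both come from RefSeq on GRCm38.p6, from 250 bases before to 50 bases after the gene start, at chr5:88527848-88528147 on the minus strand for Jchain and chr9:51213440-51213739 on the plus strand for Pou2af1, and capitals mark TGACGTGG.
Jchain: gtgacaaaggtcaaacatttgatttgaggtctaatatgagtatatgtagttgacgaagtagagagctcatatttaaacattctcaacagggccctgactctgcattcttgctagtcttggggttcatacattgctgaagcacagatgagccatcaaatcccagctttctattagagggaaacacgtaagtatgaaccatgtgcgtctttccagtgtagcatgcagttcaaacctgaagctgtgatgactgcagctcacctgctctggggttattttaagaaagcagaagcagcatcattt
Pou2af1: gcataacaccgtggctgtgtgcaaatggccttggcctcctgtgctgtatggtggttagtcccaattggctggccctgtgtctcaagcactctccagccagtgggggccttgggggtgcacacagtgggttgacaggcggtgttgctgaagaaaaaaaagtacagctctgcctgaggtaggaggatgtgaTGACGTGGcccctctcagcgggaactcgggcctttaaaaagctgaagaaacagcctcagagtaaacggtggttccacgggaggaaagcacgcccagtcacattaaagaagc

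The unfolded protein response site TGACGTGG was found once, 61 bases before the Pou2af1 start. On either strand it was present in 222 of 32544 promoters of this length (0.682%). The octamer ATTTGCAT, on either strand, was in 0 of the 5 member promoters searched (Jchain, Pou2af1, Prdm1, Tnfrsf17 and Xbp1) and in 1.75% of all promoters. The short core CCACG, which overlaps the longer site, was in those of Pou2af1 and Prdm1 and in 33.0% of all. These are matches of letters only, and no promoter of an immunoglobulin V or C gene was available to search.

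Among heavy chains, IgM and IgA probe sets were the ones that rose. In neutrophilic lung 4 of 10 heavy chain members passed, 3 of them with a single symbol, and in mixed lung 1 passed. Of all probe sets, 1.12% rose in neutrophilic and 0.512% in mixed lung. The first Ighm probe set was at 6.40, 5.87 and 5.88 in control mice, at 6.82, 5.94 and 5.41 in eosinophilic mice, at 9.28, 8.60 and 9.74 in mixed mice and at 7.67, 10.90 and 9.33 in neutrophilic mice. Every mouse of both nasal models lay above every control and eosinophilic mouse. Ighm set 1 thus rose 8.90-fold in mixed lung (3.15 ± 0.64, limma adjusted p = 0.0474 on 11 arrays and 0.127 on 12) and 9.50-fold in neutrophilic lung (3.25 ± 0.64, limma adjusted p = 0.0189 and 0.0548).

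Ighm set 3 ran from 3.71 to 4.27 in control mice and reached 6.94, 4.52 and 9.25 in mixed mice and 6.86, 8.97 and 8.80 in neutrophilic mice. It rose in neutrophilic lung (4.14 ± 0.94, limma adjusted p = 0.0343, and 0.106 on 12 arrays), and mixed mouse 16 stayed close to the controls (2.83 ± 0.94, limma adjusted p = 0.276). On the array of eosinophilic mouse 7, which stood apart, it read 6.80, where mice 8 and 9 read 4.0 and 4.68. Ighm set 2 was above all controls in both models, at 6.71 to 8.82 in mixed and 6.77 to 9.34 in neutrophilic mice against 5.52 to 5.81, and it missed the threshold in both (limma adjusted p = 0.303 and 0.0524).

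Of the 2 single-symbol IgA probe sets, 1 rose in neutrophilic lung. Igha set 2 was at 6.28, 5.75 and 6.20 in controls, at 3.86, 5.18 and 3.98 in eosinophilic mice, at 6.42, 7.22 and 8.50 in mixed mice and at 8.91, 9.83 and 11.87 in neutrophilic mice. The 4 groups did not overlap at any step, although the step from mixed to neutrophilic mice did not pass the test (limma adjusted p = 0.539) and was free of overlap in 1 of 37 members, against 5.49% of all probe sets. It rose 17.4-fold in neutrophilic lung (4.12 ± 0.70, limma adjusted p = 0.00986, and 0.0276 on 12 arrays), while the differences from control in mixed lung (1.30 ± 0.70, limma adjusted p = 0.706) and eosinophilic lung (-1.50 ± 0.78, limma adjusted p = 0.429) did not pass.

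Igha set 1 showed a wider spread between mice. It lay at 5.19 to 6.01 in controls and at 5.45 to 5.79 in eosinophilic mice, and it read 6.59, 6.99 and 11.13 in mixed mice and 7.20, 10.83 and 11.67 in neutrophilic mice. Both nasal models lay wholly above controls, but 1 or 2 mice per group carried most of the difference, and neither passed (limma adjusted p = 0.560 and 0.0749). The probe set named Igha and Ighv1-33 rose in neutrophilic lung, from 5.27 to 5.58 in controls to 7.31, 10.98 and 9.39 (3.85 ± 0.80, limma adjusted p = 0.0250, and 0.0556 on 12 arrays).

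Ighg3, the single-symbol IgG3 probe set, did not follow the others. It was at 4.08, 3.37 and 3.37 in controls, at 5.67, 4.87 and 4.81 in eosinophilic mice, at 3.48, 4.05 and 4.71 in mixed mice and at 4.96, 8.57 and 4.0 in neutrophilic mice. Eosinophilic mice 8 and 9 lay above all controls and all mixed mice, and neutrophilic mouse 24 stood alone. No difference from control passed (1.24 ± 0.99, 0.47 ± 0.89 and 2.24 ± 0.89 in eosinophilic, mixed and neutrophilic lung, with limma adjusted p = 0.577, 1 and 0.208). The remaining 3 heavy chain probe sets name Igha with Ighg3 or a V gene, and their differences in neutrophilic lung were 2.15 ± 0.78 (Ighv3-6 and Igha), 3.33 ± 0.96 and 4.45 ± 1.20 (both Ighg3, Igha, Ighv1-33 and Ighv1-26), with limma adjusted p of 0.163, 0.0800 and 0.0645.

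**Figure D2:**
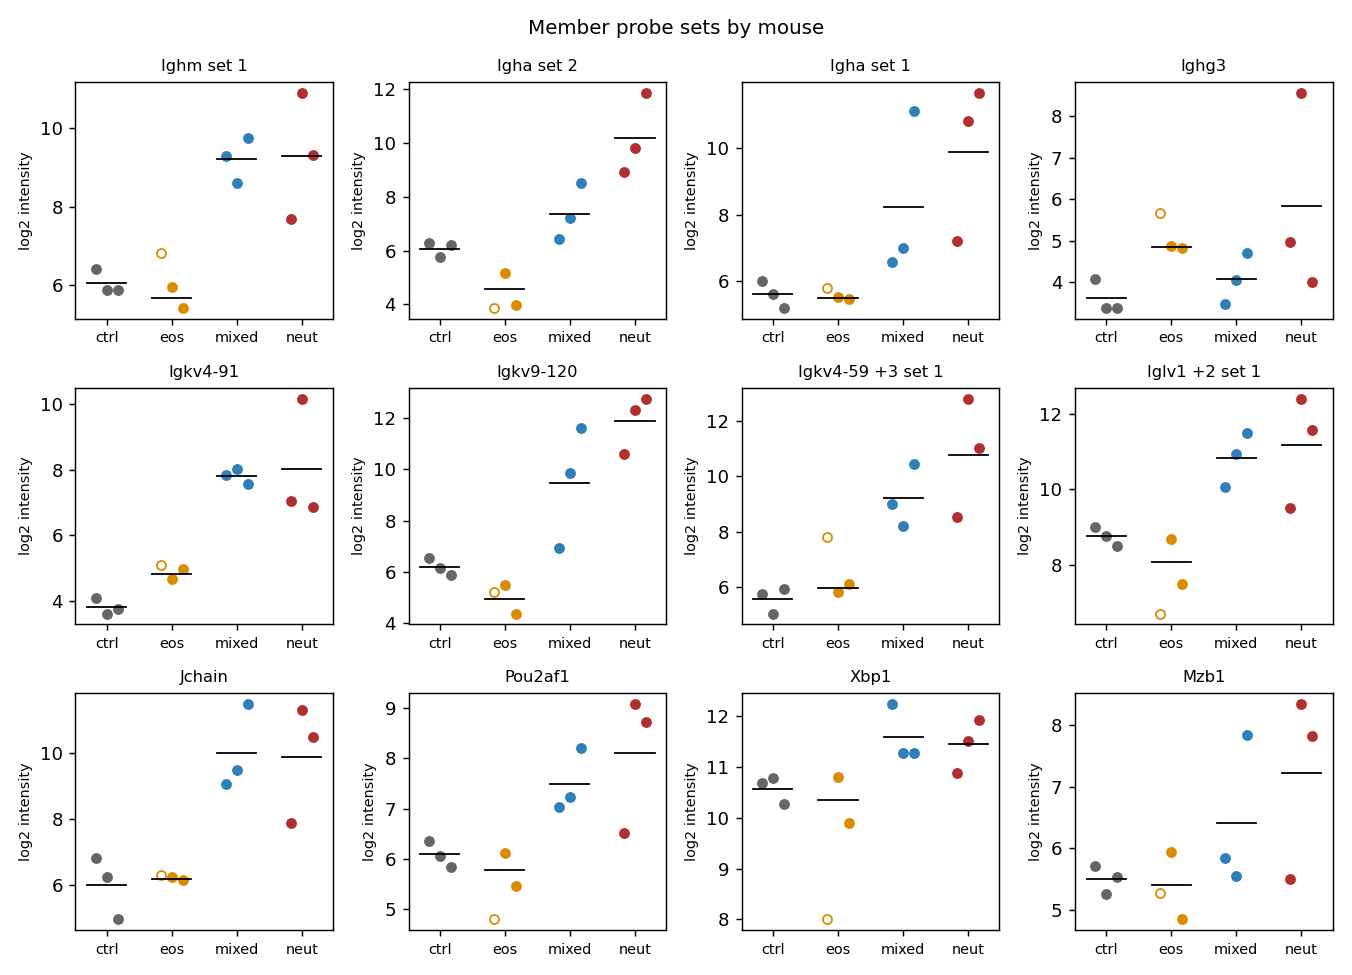
Log2 intensity of 12 member probe sets in each mouse (ctrl, control; eos, eosinophilic; neut, neutrophilic), with mice in number order from left to right and a line at the mean of the filled points; the open point is eosinophilic mouse 7, left out of the tests, and each panel has its own axis. Igha set 2 steps up from mixed to neutrophilic mice without overlap, a step that did not pass the test, Igkv4-91 has overlapping levels in both, and Ighg3 is highest in neutrophilic mouse 24 at 8.57, with eosinophilic mice above the controls.

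Kappa light chain V genes were likewise high in the nasal models. Of 19 kappa members 18 lay wholly above control in neutrophilic lung (12.7% of all probe sets did) and 16 in mixed lung (8.55%). By test 5 rose in neutrophilic lung (1.12% of all probe sets did) and 1 in mixed lung (0.512%). Igkv4-91 was at 4.10, 3.63 and 3.76 in controls, at 5.10, 4.67 and 4.99 in eosinophilic mice, at 7.82, 8.03 and 7.57 in mixed mice and at 7.06, 10.15 and 6.86 in neutrophilic mice. All asthma model mice lay above all controls, and the mixed mice lay close together. It rose 15.8-fold in mixed lung (3.98 ± 0.68, limma adjusted p = 0.0229, and 0.0549 on 12 arrays) and 18.3-fold in neutrophilic lung (4.19 ± 0.68, limma adjusted p = 0.00794, and 0.0229 on 12 arrays), and the difference of 1.0 ± 0.76 in eosinophilic lung did not pass (limma adjusted p = 0.556).

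Igkv9-120 had the largest difference from control of any member. It was at 6.56, 6.16 and 5.88 in controls, at 5.21, 5.48 and 4.37 in eosinophilic mice, at 6.95, 9.86 and 11.64 in mixed mice and at 10.59, 12.31 and 12.77 in neutrophilic mice. It rose 51.7-fold in neutrophilic lung (5.69 ± 0.95, limma adjusted p = 0.00911, and 0.0259 on 12 arrays). Mixed mouse 15 was close to the controls while mouse 17 was within the neutrophilic range, and the mixed difference of 3.28 ± 0.95 did not pass (limma adjusted p = 0.182). The annotation gave this probe set 1 accession. Igkv9-120/Igk-V21/Map3k20/Igkv1-117 sets 1 and 2 also name the gene and differed less in neutrophilic lung, by 3.26 ± 0.82 and 3.61 ± 0.96. Neither passed (limma adjusted p = 0.0517 and 0.0625). Whether single-symbol V probe sets also read other V genes was not tested. Igkv19-93 set 1 differed from control by -0.76 ± 1.22 in eosinophilic lung (limma adjusted p = 0.788) and by 3.66 ± 1.09 in neutrophilic lung (limma adjusted p = 0.0902), and passed in neither. For Igkv19-93 set 2 these differences were 0.11 ± 0.77 and 1.94 ± 0.69 (limma adjusted p = 0.957 and 0.154).

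The other kappa rises came from 3 of the 4 probe sets that join V kappa symbols with the kappa constant gene Igkc. The first of the pair named Igkv4-59, Igkv4-70, Igkc and Igkv4-80 was at 5.77, 5.05 and 5.93 in controls, at 7.83, 5.82 and 6.13 in eosinophilic mice, at 8.99, 8.21 and 10.45 in mixed mice and at 8.54, 12.80 and 11.01 in neutrophilic mice. Both nasal models lay above all other mice. The rise in neutrophilic lung was 36.8-fold (5.20 ± 0.87, limma adjusted p = 0.00922, and 0.0314 on 12 arrays), and the mixed difference of 3.63 ± 0.87 missed the threshold (limma adjusted p = 0.0966). The second probe set of this pair (4.50 ± 1.04, limma adjusted p = 0.0372) and an 8-symbol Igkv4 and Igkc probe set (3.86 ± 0.93, limma adjusted p = 0.0438) also rose in neutrophilic lung, and neither passed on 12 arrays (0.0790 and 0.111). The remaining Igkc probe set, with 6 symbols, passed neither in neutrophilic lung (3.51 ± 1.13, limma adjusted p = 0.117) nor in mixed lung (1.97 ± 1.13, limma adjusted p = 0.759).

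Neither lambda chain probe set passed, although both lay above all controls in both nasal models. Each names Iglv1, Iglc1 and Iglv2. Iglv1/Iglc1/Iglv2 set 1 was at 9.02, 8.76 and 8.50 in controls, 6.72, 8.68 and 7.50 in eosinophilic mice, 10.07, 10.93 and 11.48 in mixed mice and 9.52, 12.40 and 11.56 in neutrophilic mice. Its differences were 2.07 ± 0.64 (limma adjusted p = 0.219) in mixed and 2.40 ± 0.64 (0.0618) in neutrophilic lung. For Iglv1/Iglc1/Iglv2 set 2 the order was the other way, with 2.72 ± 0.56 (limma adjusted p = 0.0507) in mixed and 1.81 ± 0.56 (0.101) in neutrophilic lung.

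Of the 6 plasma cell members, Jchain had the largest differences from control. Jchain was at 6.81, 6.25 and 4.95 in controls, at 6.31, 6.23 and 6.13 in eosinophilic mice, at 9.07, 9.49 and 11.50 in mixed mice and at 7.89, 11.31 and 10.51 in neutrophilic mice. Every mouse of the nasal models lay above every other mouse. It rose 14.9-fold in neutrophilic lung (3.90 ± 0.85, limma adjusted p = 0.0296, and 0.0632 on 12 arrays), and a difference of like size in mixed lung just missed the threshold (4.02 ± 0.85, limma adjusted p = 0.0566, and 0.119 on 12 arrays).

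Pou2af1 was at 6.36, 6.06 and 5.84 in controls, 4.80, 6.12 and 5.45 in eosinophilic mice, 7.02, 7.23 and 8.22 in mixed mice and 6.52, 9.08 and 8.73 in neutrophilic mice. It lay above all controls in both nasal models, with differences of 1.40 ± 0.58 and 2.03 ± 0.58 that did not pass (limma adjusted p = 0.462 and 0.0788). Xbp1, a transcription factor of the secretory programme that lung epithelium also uses, was at 10.69, 10.77 and 10.26 in controls, 8.01, 10.80 and 9.89 in eosinophilic mice, 12.23, 11.26 and 11.28 in mixed mice and 10.88, 11.51 and 11.93 in neutrophilic mice. Both nasal models again lay above all controls, by 1.02 ± 0.38 and 0.87 ± 0.38, without passing (limma adjusted p = 0.364 and 0.257).

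The other 3 plasma cell members overlapped control in both models. Mzb1, an endoplasmic reticulum protein that helps antibody assembly, was at 5.27 to 5.72 in controls, at 5.84, 5.55 and 7.83 in mixed mice and at 5.51, 8.33 and 7.81 in neutrophilic mice. It was high in the same 3 mice, 17, 24 and 25, in which most antibody chains were high. Prdm1, the repressor that drives plasma cell differentiation, differed from control by 0.49 ± 0.52 in mixed and 0.37 ± 0.52 in neutrophilic lung, and Tnfrsf17, the survival receptor BCMA, by 0.17 ± 0.37 and 0.27 ± 0.37 (limma adjusted p of 0.714 to 1 over these 4 values).

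**Figure D3:**
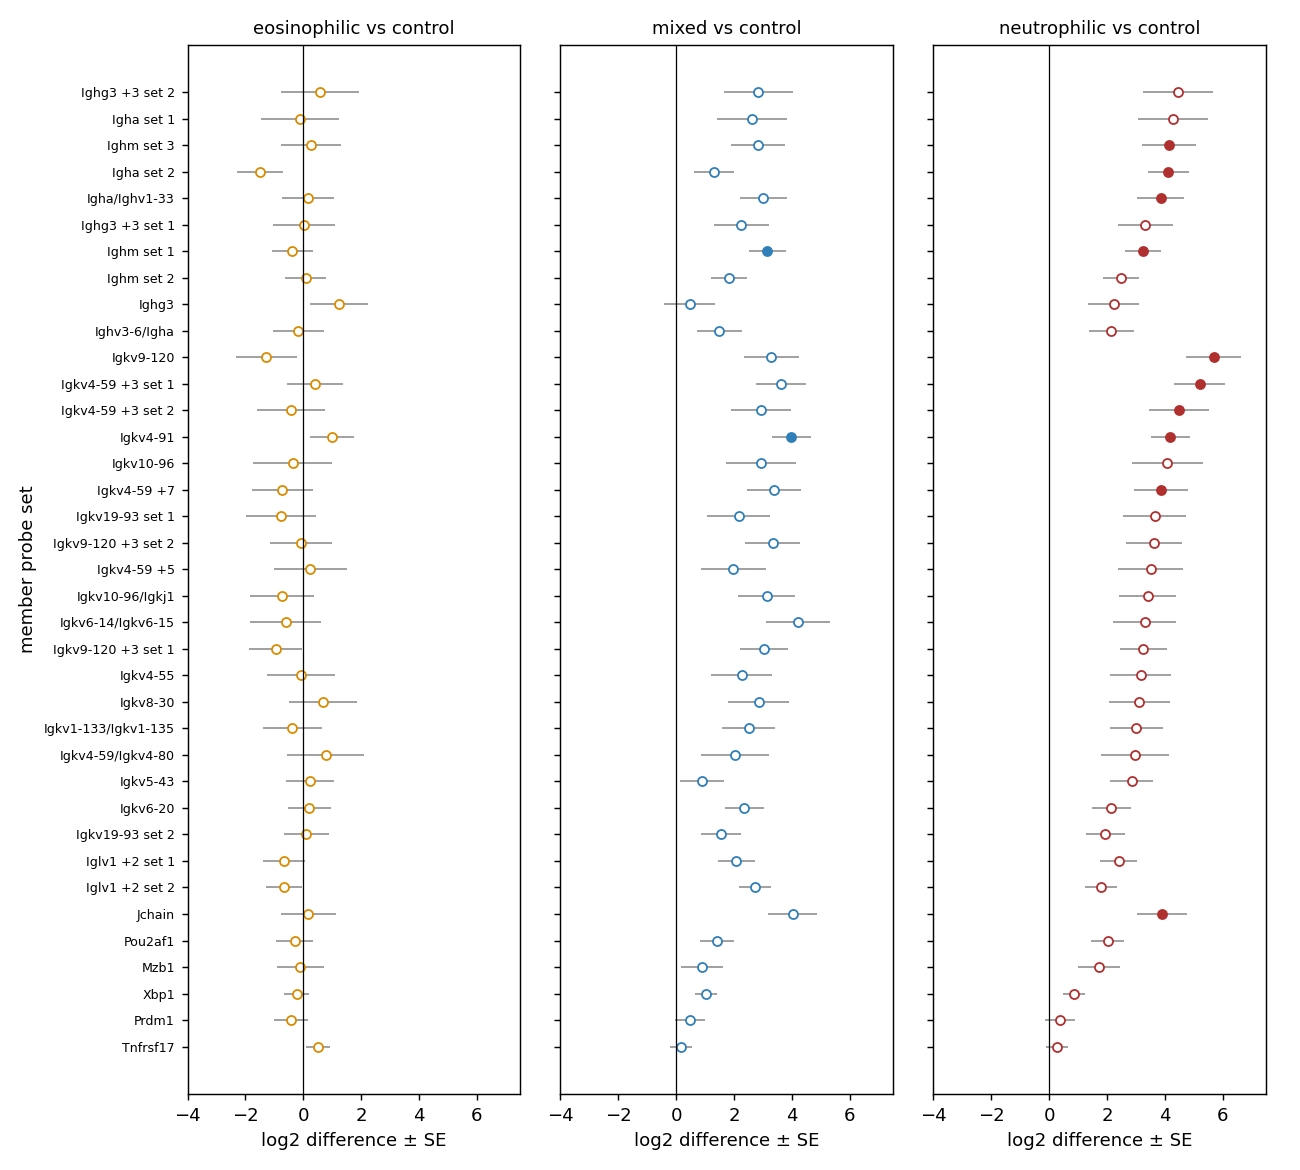
Difference of each of the 37 members from the control mean in each model (log2 ± SE, limma on 11 arrays without eosinophilic mouse 7), ordered within chain type by the neutrophilic difference; filled points passed adjusted p under 0.05. No point is filled for the eosinophilic model, 2 are filled for mixed and 10 for neutrophilic, and points of the eosinophilic model lie on both sides of 0.

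Of the members that rose, Igkv4-91 and Ighm set 1 passed in both mixed and neutrophilic lung, 8 members passed in neutrophilic lung only and 27 of 37 in neither. These 2 comparisons share the control mice, and the difference between them is tested below. At an unadjusted p under 0.05, 25 of 37 passed in mixed lung, against 9.01% of all probe sets, and 35 of 37 in neutrophilic lung, against 17.8%. Lying wholly above the controls were 30 of 37 members in mixed lung, against 8.55% of all probe sets, and 31 of 37 in neutrophilic lung, against 12.7%. Among single-symbol members 14 and 17 of 21 did so, and among multi-symbol members 16 and 14 of 16, with median differences of 2.15 and 3.11 for the former and 2.88 and 3.37 for the latter.

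The number of calls rested on few mice. With all 12 arrays 0 members passed in mixed lung (0.115% of all probe sets rose) and 4 in neutrophilic lung (0.308%), namely Igha set 2, Igkv9-120, Igkv4-91 and the first Igkv4-59, Igkv4-70, Igkc and Igkv4-80 probe set. Leaving out neutrophilic mouse 23 gave 29 neutrophilic calls. Leaving out any of control mice 1, 2 and 3 or neutrophilic mice 24 and 25 gave 4, 2, 4, 5 and 4. The mixed count was 1 without mouse 15 and 0 without any other mouse compared. The share of all probe sets called in these refits is not given here, so the counts are not read as particular to the members.

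In the eosinophilic model 0 of 37 members passed limma's test, with 0 at an unadjusted p under 0.05, against 13.0% of all probe sets. Wholly above the controls lay 3 members (Ighg3, Igkv4-91 and the Igkv4-59 and Igkv4-80 probe set), against 15.6% of all probe sets, and wholly below lay 2 (Igha set 2 and Igkv9-120), against 15.1%. These shares are no higher than those of the whole array. With 2 eosinophilic mice in the fit the SE of a member was 0.41 to 1.36, so small differences would not have been detected. A difference larger than its SE could also fail to pass, as for Igha set 2 (-1.50 ± 0.78, limma adjusted p = 0.429).

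The same low dose was given into the nose alone in the mixed model and after peritoneal sensitisation in the eosinophilic model. Between them 0 of 37 members passed limma's test, where 0.00288% of all probe sets were called higher in mixed lung. At an unadjusted p under 0.05 there were 23 members, against 6.80% of all probe sets. The mixed mice lay wholly above eosinophilic mice 8 and 9 in 30 members, against 8.92% of all probe sets, with a median difference of 2.74. The largest was that of the Igkv6-14 and Igkv6-15 probe set (4.82 ± 1.23, limma adjusted p = 0.501), and Ighg3 was the 1 member wholly lower in mixed mice (-0.77 ± 0.99, limma adjusted p = 0.848), against 9.62% of all probe sets. With mouse 7 included the 3 mixed mice lay wholly above the 3 eosinophilic mice in 25 members, against 6.01% of all probe sets. Without eosinophilic mouse 8 the count that passed was 3, with 1 mouse left in that group.

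Neutrophilic lung, with the high nasal dose, was above eosinophilic lung in 36 of 37 members, and 2 passed, where 0.0633% of all probe sets rose. Igha set 2 was 49.2-fold higher (5.62 ± 0.78, limma adjusted p = 0.0328, and 0.0214 on 12 arrays). Igkv9-120 was 125.0-fold higher (6.97 ± 1.06, limma adjusted p = 0.0471, and 0.0276 on 12 arrays, where 0.106% of all probe sets rose). Both were also the members that lay wholly below controls in eosinophilic lung. The fit held eosinophilic mice 8 and 9, and the array of mouse 9 had a narrow spread and a correlation of 0.863 with the median of the others. The part of array quality in these differences was not tested. In 30 members the 3 neutrophilic mice lay wholly above eosinophilic mice 8 and 9, against 7.55% of all probe sets. Leaving out neutrophilic mouse 23 raised the count from 2 to 19, and leaving out neutrophilic mouse 24 or 25 brought it to 0. The share of all probe sets called in these refits is likewise not given.

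Neutrophilic and mixed lung differ in allergen dose on the same schedule, and no member separated them by test. The median difference was 0.65 in favour of neutrophilic lung, 31 of 37 members were positive, and 0 passed limma's test, where 0% of all probe sets were called higher. At an unadjusted p under 0.05 there were 3 members (of 37), against 6.59% of all probe sets. Igha set 2, the 1 member without overlap between these groups, differed by 2.82 ± 0.70. For Igkv4-91, Ighm set 1 and Jchain the differences were 0.22 ± 0.68, 0.09 ± 0.64 and -0.12 ± 0.85. A difference between the doses was not detectable in these members with 3 mice per group.

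Mice within a group differed as a whole. Mixed mouse 17 had the highest value of its group in 31 of 37 members. Neutrophilic mouse 24 was highest in 29 and mouse 25 in the other 8, and mouse 23 was lowest in 33. The median log2 intensity over the 37 members was 6.96, 7.40 and 9.47 in mixed mice 15, 16 and 17 and 6.77, 10.15 and 9.33 in neutrophilic mice 23, 24 and 25, against 5.52 to 6.01 in controls and 5.08 to 5.60 in eosinophilic mice. Each median in the nasal models lay above each of the others. Neutrophilic mouse 23 is also the mouse whose array had the narrow spread, and the part of array quality in its low values was not tested.

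General B cell genes overlapped the controls in most cases. Of 15 measured B cell genes 0 passed limma's test in any model. At an unadjusted p under 0.05 there were 3, 1 and 2 in eosinophilic, mixed and neutrophilic lung, against 13.0%, 9.01% and 17.8% of all probe sets. The list's median differences were -0.36, -0.05 and 0.39, against 0.09, 0.04 and 0.11 for all probe sets. Ms4a1, which encodes the B cell surface protein CD20, was at 7.52, 6.87 and 5.95 in controls, 5.36, 5.19 and 5.40 in eosinophilic mice, 6.17, 5.66 and 6.37 in mixed mice and 5.82, 6.88 and 5.38 in neutrophilic mice. The control and nasal model mice overlapped, and the eosinophilic mice lay below all controls without passing the test (-1.48 ± 0.50, limma adjusted p = 0.262). Cd79b, a subunit of the B cell receptor, differed from control by -1.09 ± 0.48, -0.16 ± 0.43 and -0.27 ± 0.43 in eosinophilic, mixed and neutrophilic lung, and 7 of the 15 genes lay wholly below control in eosinophilic mice 8 and 9, again against 15.1% of all probe sets. Fcer2a, the low-affinity IgE receptor CD23, had the smallest p of the list, with 8.60, 7.59 and 8.48 in mixed mice against 6.01 to 6.91 in controls (1.73 ± 0.57, limma adjusted p = 0.275). In neutrophilic lung Cd22 differed by 0.84 ± 0.31 and Ebf1 by -1.13 ± 0.54 (limma adjusted p = 0.182 and 0.302). Blk differed by -0.93 ± 0.35 in eosinophilic lung (limma adjusted p = 0.309).

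Among 22 plasma cell and secretory genes outside the members, 1 rose in mixed and 1 in neutrophilic lung, and it was Irf4 in both. Of all probe sets, 0.512% and 1.12% rose in these models. Irf4, a transcription factor needed for plasma cells and also used by T cells and macrophages, was at 5.34, 5.13 and 4.88 in controls, 5.44, 6.53 and 6.29 in eosinophilic mice, 7.70, 7.47 and 7.77 in mixed mice and 6.26, 8.77 and 8.32 in neutrophilic mice. All asthma model mice lay above all controls. The rise was 2.53 ± 0.51 in mixed lung (limma adjusted p = 0.0493, and 0.136 on 12 arrays) and 2.66 ± 0.51 in neutrophilic lung (limma adjusted p = 0.0174, and 0.0537 on 12 arrays). Derl3, an endoplasmic reticulum protein abundant in plasma cells, differed by 1.21 ± 0.42 in neutrophilic lung (limma adjusted p = 0.151), and the chaperones Dnajb9 and Hsp90b1 by -1.29 ± 0.49 and -0.84 ± 0.31 (limma adjusted p = 0.188 and 0.178). Slamf7 differed by 0.99 ± 0.43 in neutrophilic lung (limma adjusted p = 0.25). Manf lay above all controls in both nasal models and differed by 0.75 ± 0.33 in mixed lung (limma adjusted p = 0.528). The list's medians were 0.05, 0.25 and 0.20 in the 3 models (all probe sets, 0.09, 0.04 and 0.11).

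Of 10 measured germinal centre and class switching genes, 1 passed, in neutrophilic lung, where 1.12% of all probe sets rose. Pdcd1, the PD-1 receptor of helper and exhausted T cells, was at 4.77 to 4.98 in controls and at 5.82, 7.70 and 6.89 in neutrophilic mice (1.93 ± 0.43, limma adjusted p = 0.0309, and 0.167 on 12 arrays). Icos, the T cell costimulator that helps B cells, lay above all controls in both nasal models (1.90 ± 0.44 and 1.71 ± 0.44) and missed the threshold (limma adjusted p = 0.0853 and 0.0550). Fas differed by 2.05 ± 0.56 in mixed lung (limma adjusted p = 0.153), and S1pr2, a germinal centre receptor, by -0.76 ± 0.25 in neutrophilic lung (limma adjusted p = 0.128).

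Among 14 measured genes of B cell help, survival and homing, Il6 and Ccl19 rose in both nasal models. Of all probe sets, 0.512% rose in mixed and 1.12% in neutrophilic lung. Ccl19 had 4 single-symbol probe sets, of which only the one with the highest mean level is described. Ccl19, a chemokine that draws CCR7-bearing lymphocytes and dendritic cells, was at 7.83, 7.76 and 7.36 in controls, 9.49, 8.10 and 8.32 in eosinophilic mice, 9.33, 9.33 and 9.95 in mixed mice and 9.54, 10.43 and 10.13 in neutrophilic mice. All 6 nasal model mice lay above all controls and above eosinophilic mice 8 and 9, with rises of 1.89 ± 0.30 (limma adjusted p = 0.0161, and 0.127 on 12 arrays) and 2.39 ± 0.30 (limma adjusted p = 0.00272, and 0.0269 on 12 arrays). Il6, a cytokine that supports plasma cells, rose by 2.66 ± 0.48 in mixed lung (limma adjusted p = 0.0312) and 2.06 ± 0.48 in neutrophilic lung (0.0396), and passed in neither on 12 arrays (0.0838 and 0.0945). Tnfsf13b, the B cell survival factor BAFF, differed by 1.47 ± 0.32 in eosinophilic lung (limma adjusted p = 0.0932, and 0.371 on 12 arrays, where the difference was 0.71) and by 0.73 ± 0.28 in mixed lung (limma adjusted p = 0.408). The B cell attractant Cxcl13 differed by 2.34 ± 0.83 in eosinophilic lung (limma adjusted p = 0.289, and 0.364 on 12 arrays, where the difference was 1.29) and by 1.92 ± 0.74 in mixed lung (limma adjusted p = 0.401). For both genes the eosinophilic difference was above the mixed one without mouse 7 and below it with mouse 7.

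Several receptors that carry or bind antibody rose. Of 11 measured Fc and immunoglobulin receptor genes, 2 rose in eosinophilic, 3 in mixed and 4 in neutrophilic lung. The shares of all probe sets that rose were 0.0978%, 0.512% and 1.12%. Pigr was at 6.89, 7.30 and 6.84 in controls, at 8.93 and 9.53 in eosinophilic mice 8 and 9, at 10.26, 9.99 and 10.47 in mixed mice and at 9.62, 10.61 and 10.58 in neutrophilic mice. Its rises were 2.22 ± 0.36 (limma adjusted p = 0.0452), 3.23 ± 0.32 (0.000870) and 3.26 ± 0.32 (0.000955). On the array of eosinophilic mouse 7 it read 5.05, and with that array the eosinophilic difference was 0.83 and no Pigr call held (limma adjusted p = 0.509, 0.298 and 0.126).

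Fcamr, a receptor for IgA and IgM, was at 4.49 to 4.65 in controls, at 6.53, 6.72 and 6.12 in mixed mice and at 5.68, 6.76 and 6.50 in neutrophilic mice. It rose by 1.88 ± 0.30 (limma adjusted p = 0.0178, and 0.0666 on 12 arrays) and 1.74 ± 0.30 (limma adjusted p = 0.0113, and 0.0430 on 12 arrays), and its eosinophilic difference of 0.68 ± 0.34 did not pass (limma adjusted p = 0.414). Fcgr2b, the inhibitory receptor for IgG, rose in all 3 models, by 3.40 ± 0.44, 2.62 ± 0.40 and 2.52 ± 0.40 (limma adjusted p = 0.0131, 0.0125 and 0.00740), and in none on 12 arrays (0.127, 0.222 and 0.112). Fcgr3, an activating IgG receptor of myeloid cells, rose in neutrophilic lung (2.07 ± 0.40, limma adjusted p = 0.0168, and 0.275 on 12 arrays).

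**Figure D4:**
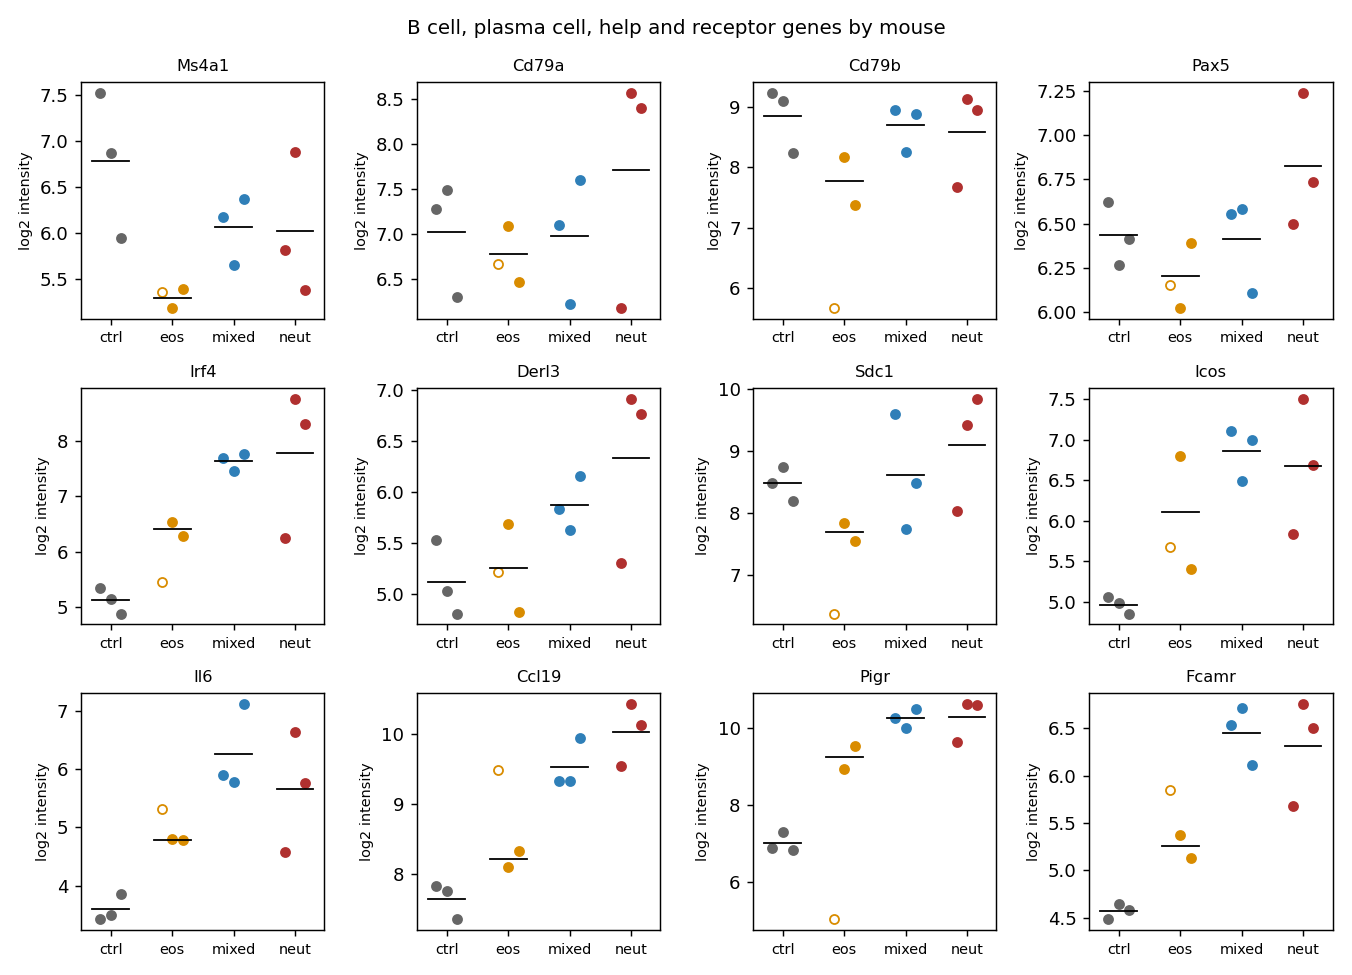
Log2 intensity of 12 genes around the antibody response in each mouse (ctrl, control; eos, eosinophilic; neut, neutrophilic), drawn as in the plot of members by mouse, with eosinophilic mouse 7 as an open point outside the mean. Ms4a1, Cd79a, Cd79b and Pax5 overlap between controls and both nasal models, while Irf4, Icos, Il6, Ccl19, Pigr and Fcamr lie above all controls in every mixed and neutrophilic mouse.

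Markers of other cells moved with the nasal models as well. Of 6 neutrophil markers 4 rose in mixed and 5 in neutrophilic lung (0.512% and 1.12% of all probe sets rose). The mean log2 level of these markers was 8.50 to 9.27 and 8.19 to 9.48 there, against 6.01 to 7.18 in controls. The mean of 4 measured B cell markers was 6.72 to 7.66 in controls, 6.68 to 7.24 in mixed and 6.54 to 7.96 in neutrophilic lung, and that of 6 lung markers was 12.13 to 12.36, 11.57 to 12.20 and 11.48 to 12.01, with 0 of either list called by limma. At an unadjusted p under 0.05 there were 0 B cell markers in both models, and 2 and 3 lung markers, against 9.01% and 17.8% of all probe sets. Median differences of the lung markers were -0.56 in mixed and -0.57 in neutrophilic lung, against 0.04 and 0.11 for all probe sets. Of 4 measured lymph node stroma markers 1 rose in both models (Ccl19), with list means of 4.97 to 5.22 in controls, 5.32 to 5.95 in mixed and 5.84 to 6.07 in neutrophilic lung. The mean of 6 T cell markers was 5.81 to 6.47, 6.04 to 6.76 and 5.53 to 6.85, and that of 6 thymus or early lymphocyte markers was 3.95 to 4.34, 4.07 to 4.41 and 4.25 to 4.92, again with 0 called by limma and, at an unadjusted p under 0.05, 1 in all (a thymus list gene in neutrophilic lung). The part of these cell types, or of lymphoid tissue left on the lung, in the antibody gene differences was not tested.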

How the data were processed

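RNA from 12 whole lungs was hybridised to Affymetrix mouse Gene 1.0 ST arrays, 1 array per mouse, from 300 ng of total RNA per the labels. Values deposited by the authors are log2 intensities per probe set from RMA, with Affymetrix Expression Console named beside it in the submitters' processing notes. Their versions are not stated there, and base 2 was inferred from the range of the values. RMA subtracts background, equalises quantiles and combines the probes of a set, which forces all arrays towards 1 distribution and compresses the differences of dim probe sets.

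Members were taken from the platform annotation, which can be old. It lists 22961 of the 34760 probe sets, 21640 with 1 symbol and 1321 with several. All 35 member symbols were in RefSeq's GRCm38.p6 gene table. Promoters of 5 were searched, and member promoters on the chromosome that holds Mzb1 were left out.

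A mean per group was fitted with limma 3.58.1 in R 4.3.3 (lmFit, eBayes without trend, two-sided) on all 4 groups and all probe sets, without eosinophilic mouse 7 because of its array quality. The labels give no batch. The script was tested on simulated data. No 2 arrays were copies of each other. Members, gene lists, the choice of arrays and the alternatives were set with earlier results of these data known.

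Named by rule were all constant region and plasma cell members, V members past the threshold (up to 5 per direction and comparison with control, or the 3 with the smallest p where none passed), 5 multi-symbol members with the smallest p, and up to 6 genes per list by smallest p. Some of the list genes picked by this rule are not described in the text. Others named in the text (the remaining kappa probe sets) were chosen after their values were seen. Alternatives were other sets of arrays, scalings, a filter on dim probe sets (log2 of 5 on at least 3 arrays, which removed Ighg3 among members), another variance model, fits of 2 groups and 1 probe set per gene.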

Additional observations from a re-analysis of the deposited data

How the results depend on the processing

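No member fell by test under any alternative, and no member passed in eosinophilic against control or in neutrophilic against mixed lung under any of them. In mixed against control lung the count of members that rose, 2 with 11 arrays, was 0 with all 12 arrays, 14 without the 3 arrays of narrow spread (eosinophilic mice 7 and 9 and neutrophilic mouse 23), 1 with arrays centred on their medians, 4 with quantile normalization, 4 with the filter on dim probe sets, 1 with trend and robust variances, 13 with only the 2 groups fitted and 0 to 1 when a mouse was left out. In neutrophilic against control lung the count of 10 became 4, 30, 6, 14, 17, 10 and 6 under the same 7 settings in that order and 2 to 29 when a mouse was left out. With 1 probe set per gene, 3 and 10 of 17 genes rose. Except for the fits with all 12 arrays, the share of all probe sets called under each alternative is not given here. The counts in this section are therefore not read as particular to the members. Neutrophilic against eosinophilic lung had 2 members past the threshold, 0 without the arrays of narrow spread, 0 after centring, 0 with 2 groups and 0 to 19 when a mouse was left out, and mixed against eosinophilic lung had 0, and 0 to 3 when a mouse was left out. The direction of every member's difference from control held in neutrophilic lung under every alternative (396 values stayed on their side of the threshold, 56 gained and 45 lost a call), and in mixed lung in all but 1 value (Tnfrsf17). In eosinophilic lung the sign changed 44 times, never for a called value. Centring moved the median of all probe sets in eosinophilic lung from 0.09 to -0.03. No paired analysis was possible because the groups share no replicate numbers. Dim probe sets such as Igkv5-43 and Ighg3 lie near the low end of the scale, where array signal limits what can be seen, and the cause of these shifts in counts was not tested.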
